A study of Mus musculus with 7 samples.

Results

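The RNA-binding protein HuR, product of Elavl1, was pulled down from CT26.WT cells, a line of mouse colon cancer, and the RNA that came down with it was sequenced. The results below concern the genes named Zfp, Zbtb, Zscan or Zkscan followed by a number, without Zfp36 and its Zfp36l relatives, that had at least 1 called site in any of the 3 HuR immunoprecipitations. There were 169 such genes, of 6277 genes with a site in all. A site is a stretch of the genome where the authors' peak caller found more signal than in its control, and each of the 3 immunoprecipitations has its own list of sites. All cells were of 1 line, of wild-type genotype and untreated, and no label says that the immunoprecipitations came from separate cultures. The study also made 3 control pull-downs with IgG and sequenced 1 input, which were not analysed here, so nothing below compares HuR with IgG or input. The lists hold called sites and no expression values, so the labelled cell type was not checked against its markers, read depth is unknown, and no value per site has a replicate error. A gene without a listed site cannot be told apart from a gene with little RNA in these cells.

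The names are given to zinc finger proteins, many but not all of which are known as DNA-binding proteins. Most of them carry rows of C2H2 zinc fingers, small loops in which a pair of cysteines and a pair of histidines hold a zinc ion, and each finger can read a few bases of DNA. A large share of mouse Zfp genes also encode a KRAB domain at the front of the protein, which recruits the co-repressor TRIM28 (KAP1) and with it histone methylation that silences transposable elements and nearby genes. Zbtb proteins carry a BTB domain instead, through which they pair with each other and bind co-repressors or the ubiquitin ligase scaffold CUL3, and Zscan and Zkscan proteins carry a SCAN domain for pairing, the latter with a KRAB domain as well. In many KRAB zinc finger genes the whole array of fingers lies in a single long last exon, while the KRAB box is encoded by a short exon of its own. HuR is known to bind U-rich and AU-rich stretches in introns and 3' untranslated regions and to stabilise many of the mRNAs it holds.

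The files describe 153 of the 169 genes as zinc finger genes and give no description for the other 16, among them Zfp638, Zfp24 and Zfp966. The annotation in the files puts 93 of the 169 under regulation of transcription and 93 in the nucleus, with 13 under negative and 5 under positive regulation of transcription. RefSeq's genes of GRCm38, used for names, hold 168 of the names, of which 167 are protein-coding. Zfp968-ps, named as a pseudogene, was found there without being protein-coding, and Zfp969 was not found. The table lists 461 protein-coding genes with names of this kind, and 36.2% of them had a site, beside 28.4% of all 21900 protein-coding genes. By name, 140 of 393 Zfp genes (35.6%), 17 of 41 Zbtb genes (41.5%), 6 of 16 Zscan genes (37.5%) and 4 of 11 Zkscan genes (36.4%) had a site. Many of these genes have near-identical relatives, and how the authors treated reads that map to several of them is not given in the sources used here, so the gene behind a site in such a family is uncertain.

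The zinc finger genes held 106 sites in 83 genes in the first immunoprecipitation, 88 sites in 68 genes in the second and 126 sites in 94 genes in the third. These 83, 68 and 94 genes are 49.1%, 40.2% and 55.6% of the 169, beside 54.5%, 57.8% and 62.8% of all genes with a site. Most of the 169 were found once: 109 genes (64.5%, exact 95% binomial interval 56.8 to 71.7%) had sites in 1 list, beside 44.8% of all genes with a site. A site in at least 2 lists was present for 60 genes (35.5%, interval 28.3 to 43.2%), beside 55.2%. Only 16 genes had a site in every list, which is 9.47% (interval 5.51 to 14.9%) beside 19.9% of all genes with a site. These intervals cover counting error only, the genes are not replicates, and no test of the difference was made.

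**Figure D1:**
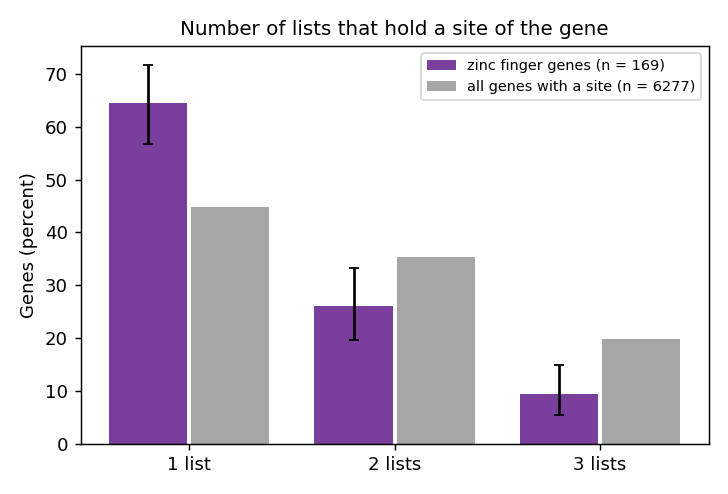
Percent of genes (vertical axis) with a site in exactly 1, 2 or 3 of the lists, for the 169 zinc finger genes (purple, with exact 95% binomial intervals) and for all 6277 genes with a site (grey). Of the zinc finger genes 64.5% are in 1 list and 9.47% in 3, beside 44.8% and 19.9% of all genes.

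The number of sites per gene is bound to this share by definition. A gene with 1 site can only be in 1 list, and a gene in every list needs at least 3 sites. The zinc finger genes had 1.89 sites per gene over the lists on average, beside 2.88 for all genes with a site, and 88 of the 169 (52.1%) had a single site, beside 35.8%. Among genes with 3 sites over the lists, 6 of 23 zinc finger genes (26.1%) were in every list, beside 23.5% of all genes with 3 sites. With 4 sites the shares were 4 of 8 (50%) and 46.9%, and with 5 or more sites 6 of 8 (75%) and 68%. In these 3 groups the share of zinc finger genes in every list was no lower than that of all genes, although so few genes leave wide intervals (10.2 to 48.4% for the 23 genes with 3 sites). The share in at least 2 lists was lower at 2 sites, with 25 of 42 zinc finger genes (59.5%, exact interval 43.3 to 74.4%) beside 71.1%, and at 3 sites, with 19 of 23 (82.6%, interval 61.2 to 95%) beside 89.1%. It was higher at 4 sites, with 8 of 8 (interval 63.1 to 100%) beside 94.9%, and at 5 or more, with 8 of 8 (the same interval) beside 98%. Each of these intervals includes the share of all genes. The number of sites is counted over the same lists, so it is no independent measure. How far it accounts for the lower shares above was not tested.

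Of the genes in 1 list, 37 were in the first list (21.9% of the 169, beside 15.2% of all genes with a site), 25 in the second (14.8% beside 13%) and 47 in the third (27.8% beside 16.6%). Lists 1 and 2 alone shared 13 genes (7.69% beside 9.05%), lists 1 and 3 shared 17 (10.1% beside 10.4%) and lists 2 and 3 shared 14 (8.28% beside 15.9%).

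Fold enrichment, the caller's ratio of signal over a control that the sources used here do not name, is the authors' value and is compared here within a list. Over the zinc finger sites the median folds of lists 1, 2 and 3 were 7.71, 7.21 and 8.55, beside 7.21, 6.41 and 8.38 over all sites of these lists. The direction in list 3 depended on the setting. It was 8.78 beside 8.87 at a caller score of at least 70, and 8.89 beside 9 with lists cut to the shortest. With folds from the lower quartile up it was 9.075 beside 9.21, and with Zfp and Zbtb names alone 8.53 beside 8.38. In lists 1 and 2 the zinc finger median was the higher at each of these settings. The quartiles of the zinc finger sites were 6.35 and 9.18 in list 1, 5.87 and 8.72 in list 2 and 7.12 and 10.28 in list 3. Folds recur exactly, so that 53 of the 106, 41 of the 88 and 45 of the 126 zinc finger sites share their fold with another zinc finger site of the list. A fold of 9.64 was given 8 times to them in list 1, where it occurs at 88 sites in all, and a fold of 7.61 was given 7 times in list 2. Small differences between the folds of single genes are for this reason not read as an order.

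The 16 genes in every list were ordered by the lowest of their best folds in the 3 lists. In that order 3 of the 4 BTB genes among them come first. The order sets folds of different lists side by side, so it serves for listing only. A best fold is the highest over a gene's sites, and Zbtb40, Zbtb41 and Zbtb44 had 6, 5 and 6 sites. Of the 16 genes, 6 had 3 sites and 6 had 5 or more. Zbtb40 had best folds of 12.4, 9.21 and 9.61 in lists 1, 2 and 3. Zbtb41 had 8.95, 12.02 and 8.86, and Zbtb44 had 33.98, 7.61 and 10.81. The remaining BTB gene, Zbtb6, had 8.72, 6.81 and 5.23 and stands near the end of the order, above Zfp966 and Zkscan1. By name, 4 of 17 Zbtb genes (23.5%) were in every list, beside 11 of 142 Zfp genes (7.75%), 1 of 4 Zkscan genes and 0 of 6 Zscan genes. The Zbtb share lies near the 19.9% of all genes with a site, the groups are small, and no difference between them was tested.

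**Figure D2:**
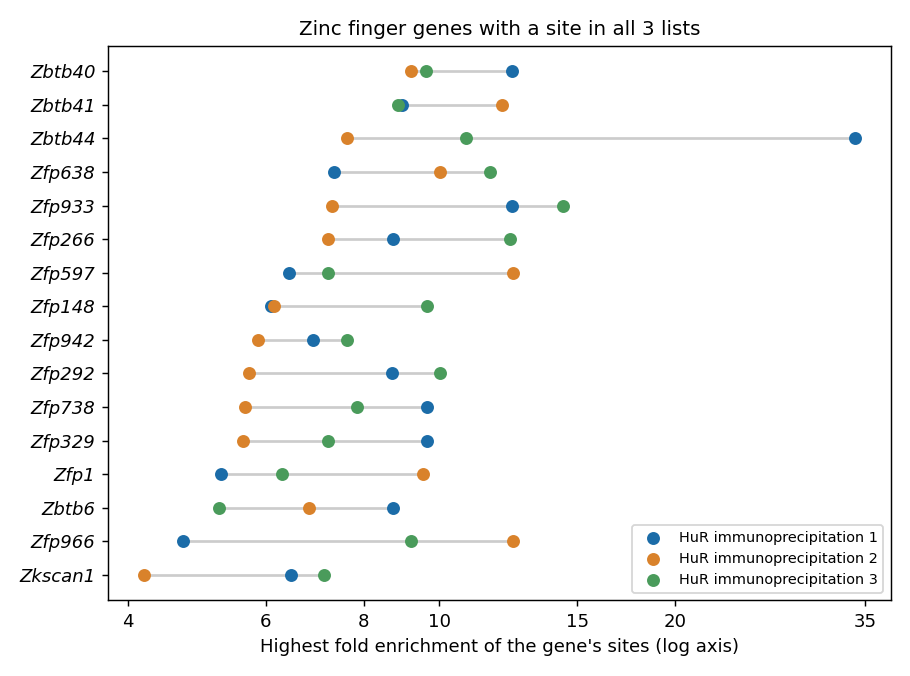
Highest fold enrichment of each gene's sites (horizontal log axis) in each HuR immunoprecipitation (colour) for the 16 zinc finger genes with a site in all 3 lists, ordered by the lowest of the 3 values. A grey line spans each gene's values; Zbtb44 has the widest span, from 7.61 to 33.98.

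Zbtb44 carried the highest fold of any zinc finger site. Its site of 315 bases on chromosome 9 (30941940 to 30942254, mm39) had a fold of 33.98 in list 1, the 4th highest of the 4722 sites of that list, with a caller score of 498.3 and an FDR of 15.66%. The score grows as the caller's p falls, by 10 for each power of 10, and the FDR is read as percent. Over the zinc finger sites the FDR ran from 14.2 to 17.35% in list 1. In list 2 it ran from 12.38 to 13.5% and in list 3 from 9.31 to 15.34%. Read so, a part of the listed sites is expected to be false, which limits every gene that rests on a single site. The other Zbtb44 site of list 1 had a fold of 8.72. In list 2 the gene had sites with folds of 7.1 and 7.61, and in list 3 sites with folds of 10.81 and 6.2. All 6 sites lie at different positions between 30941940 and 30986822, and none overlaps another, so the value of 33.98 has no counterpart in lists 2 and 3.

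Zbtb40 had 6 sites over the lists, on chromosome 4. One of 207 bases (136721656 to 136721862) had the same bounds in list 1, with a fold of 9.64, and in list 2, with 7.61. Another of 143 bases (136734349 to 136734491) had the same bounds in list 1, with 12.4, and in list 3, with 9.61. Zbtb40 is thus in every list with a pair of repeated sites, while no single site of it is in all 3. Zbtb41 repeated a site of 42 bases on chromosome 1 (139350120 to 139350161) in list 1, with a fold of 8.95, and list 2, with 12.02; its list 3 sites lie elsewhere in the gene.

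Other BTB genes had sites in 1 or 2 lists. Zbtb33, which encodes Kaiso, a protein that binds methylated DNA, had best folds of 11.02 in list 1 and 12.93 in list 3 and no listed site in list 2. The list 3 site overlaps the other list 1 site, with a fold of 8.61, and not that of 11.02. Zbtb17, which encodes the MYC partner MIZ1, had a site of equal bounds with folds of 7.35 in list 1 and 9.61 in list 3. Zbtb48, whose human counterpart binds telomere repeats, had 7.37 in list 1 and 6.81 in list 2. Zbtb24, needed in humans and mice for DNA methylation at centromeric repeats, had 7.76 in list 3 alone, and Zbtb20 had 7.35 in list 1 alone. In list 3 a Zbtb37 site, with a fold of 9.21, overlaps sites named for Serpinc1 in lists 1 and 2 on chromosome 1, with folds of 7.81 and 8.01, so these reads cannot be assigned to 1 of the genes with certainty. It is the only region of a zinc finger gene that overlaps a site of a gene outside the set.

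Among the Zfp genes in every list, Zfp1 alone had a region with a site in all 3 lists. It lies on chromosome 8 (112396123 to 112397643, mm39) and spans 1521 bases, with folds of 5.26, 9.54 and 6.29 and scores of 112.43, 186.54 and 92 in lists 1, 2 and 3. Its 3 sites are also the only listed sites of the gene, and each is over 1000 bases long.

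Zfp638, whose human counterpart silences unintegrated retroviral DNA in the nucleus, had best folds of 7.34, 10.01 and 11.62. One of its sites, of 1228 bases on chromosome 6 (83953184 to 83954411), had the same bounds in list 2, with a fold of 4.65, and in list 3, with a fold of 9. Zfp148, which binds GC-rich promoters, had best folds of 6.1, 6.14 and 9.65 and 6 sites, of which 4 are in list 3. A site of 136 bases on chromosome 16 (33247564 to 33247699) was repeated with folds of 6.14 in list 2 and 5.67 in list 3. Zfp148 also holds a site of 3809 bases in list 3, where the fold was 7.33.

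Zfp933 had best folds of 12.4, 7.3 and 14.41, and Zfp266 had 8.72, 7.21 and 12.3. Both repeated a site of equal bounds in lists 1 and 3. Zfp597 reached 12.41 in list 2, with 6.43 in list 1 and 7.21 in list 3. Zfp942 had 6.89, 5.87 and 7.61, and Zfp292 had 8.7, 5.71 and 10.01, each with 1 site in each list and no overlap between them. The lowest of the 16 by this order was Zkscan1, with 6.46, 4.19 and 7.12. For 11 of the 16 genes a site of 1 list overlapped a site of another, and for Zbtb44, Zfp292, Zfp329, Zfp942 and Zkscan1 no sites overlapped. The same count over all genes in every list is not given here, so it is not read as particular to these genes.

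Some of the highest folds belong to genes that are not in every list. Zfp451, whose human counterpart attaches the small modifier SUMO to other proteins, reached 18.76 in list 1, at a site of 878 bases, and 9.21 in list 3, and list 2 held none of its sites. Zfp97 had 1 site, with the same bounds and folds of 16.03 and 18.41 in lists 1 and 3. Zfp236 held the most sites, 8, with 3 in list 2 and 5 in list 3 and none in list 1; its best folds were 12.81 and 16.07, and none of its 8 sites overlaps another. Zfp318, which in B cells is needed for the IgD form of the antigen receptor, had the highest zinc finger fold of list 2, 13.1, at its only site. Zfp697 had 15.62 at its only site, in list 3.

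Sites were next compared by position. The 320 zinc finger sites formed 285 separate regions. Of these, 34 held sites of at least 2 lists by an overlap of at least 1 base, and 1, that of Zfp1, held a site of every list. Regions were also formed over all genes, to find the genes with a shared region given below. Their numbers are not given here, so these counts are not read as particular to the zinc finger genes. Of the 34 regions, 18 had exactly the same start and end in the lists that shared them. Of the overlapped zinc finger sites under 1000 bases, 34 of 50 (68%) had the same bounds as a site of another list, beside 80.4% of all such sites, and of the longer ones 2 of 20 (10%), beside 19.5%. Lists 1 and 2 shared 9 regions, lists 1 and 3 shared 15 and lists 2 and 3 shared 12, each count including the region of Zfp1. In list 1, 21.7% of the zinc finger sites were overlapped by a site of another list, beside 29.8% of all sites. In list 2 the share was 22.7% beside 35.4%, and in list 3 it was 21.4% beside 23.4%. Of the 60 zinc finger genes in at least 2 lists, 33 (55%) had a region shared between lists, beside 56.5% of all genes in at least 2 lists.

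Sites in zinc finger genes had higher median lengths than all sites of the same list. Their median length came to 294.5 bases for list 1, where all sites together gave 176, to 308 beside 161 for list 2, and to 766.5 beside 152 for list 3. In list 3, 51 of 126 zinc finger sites (40.5%, exact interval 31.8 to 49.6%) were 1000 bases or longer, beside 7.33% of all sites of that list. In list 2 the share was 16 of 88 (18.2%, interval 10.8 to 27.8%) beside 6.22%. In list 1 it was 5 of 106 (4.72%, interval 1.55 to 10.7%) beside 4.07%, and these 5 sites are in Zbtb41, Zfp1, Zfp382, Zfp62 and Zfp626. The bound of 1000 bases was chosen after the lengths were seen.

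**Figure D3:**
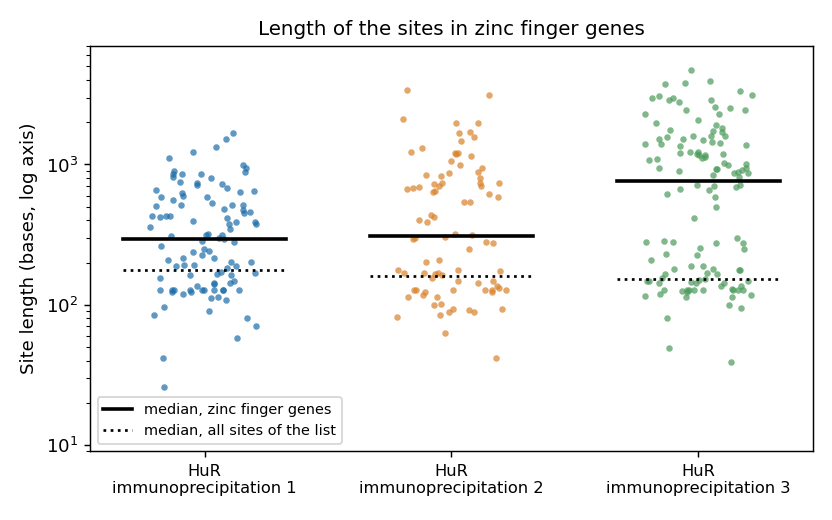
Length in bases (vertical log axis) of each of the 320 zinc finger sites (points), by HuR immunoprecipitation. Solid lines are the medians of these sites (294.5, 308 and 766.5 bases) and dotted lines those of all sites of the list (176, 161 and 152 bases). In the third list 4 of the 126 points lie over 300 and up to 600 bases.

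In list 3, 52 of the 126 sites (41.3%) were at most 300 bases, 4 (3.17%) were over 300 and up to 600 bases, and 70 (55.6%) were longer. Over all sites of that list the same bins held 80.2%, 6.7% and 13.1%, so the middle bin was the smallest there too. In list 1 the bins held 54, 29 and 23 zinc finger sites (50.9%, 27.4% and 21.7%, beside 69.8%, 18.2% and 12% of all sites). In list 2 they held 43, 10 and 35 (48.9%, 11.4% and 39.8%, beside 73.6%, 11.6% and 14.8%). Of the 61 zinc finger genes with a site of 1000 bases or more, 43 had such sites in list 3 alone and 8 had them in at least 2 lists. These counts were not made over all genes. By sites, list 3 held 51 of the 72 zinc finger sites of this length, beside 584 of 1111 over the series. A site of another list overlapped 27.8% of the 72, beside 32.8% of the 1111. The longest zinc finger sites had 4701 bases in Zfp451, 3954 in Zfp652 and 3809 in Zfp148, all in list 3. Long sites had lower folds than the shorter ones of the same list: the medians over zinc finger sites were 4.73 and 7.8 in list 1, 5.425 and 7.545 in list 2, and 7.19 and 9.61 in list 3. Over all sites, the corresponding medians were 6.04 and 7.26, 5.27 and 6.44, and 7.155 and 8.41. Whether the long sites follow the long last exons of these genes was not tested, because no gene annotation of the mm39 build was used here. For the same reason, no site sequence is printed.

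A single length stood out among the shorter sites. Exactly 127 bases were spanned by 23 of the 320 zinc finger sites, which is 7.19% (exact interval 4.61 to 10.6%), beside 0.653% of all sites in the series and 0.535% of the 17752 sites in other genes. The next most frequent length among zinc finger sites, 124 bases, occurred 5 times. Over all sites of the series the most frequent length was 117 bases, with 147 sites. The length was singled out after it was seen and no test was made of it. The interval treats the sites as independent, which they are not, since 4 of the 19 genes with such a site had it in 2 lists.

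**Figure D4:**
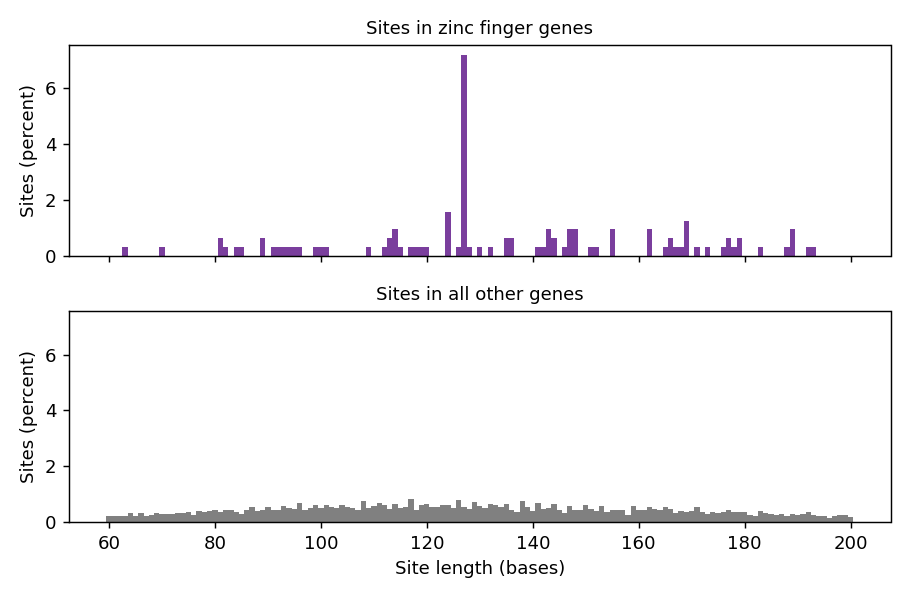
Percent of sites (vertical axes, the same scale) at each length from 60 to 200 bases (horizontal axis), for the zinc finger genes (top) and all other genes (bottom). The tallest bar at the top is 127 bases, at 7.19% of the zinc finger sites, against 0.535% of the sites in other genes.

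The sites of 127 bases were found in every immunoprecipitation, with 10 in list 1, 5 in list 2 and 8 in list 3. That is 9.43%, 5.68% and 6.35% of the zinc finger sites of these lists, beside 0.614%, 0.557% and 0.741% of all their sites. The zinc finger sites of this length belong to 19 genes, all named Zfp, and none to a Zbtb, Zscan or Zkscan gene. Zfp genes hold 263 of the 320 sites, and Zbtb, Zscan and Zkscan genes only 42, 8 and 7. Their lack of such a site is therefore not read as a difference between the names. Zfp97, Zfp933, Zfp369 and Zfp966 each had the site at the same bounds in 2 lists. That of Zfp97 (chromosome 17, 17362998 to 17363124) had the folds of 16.03 and 18.41 given above, that of Zfp933 (chromosome 4, 147913127 to 147913253) had 12.4 in list 1 and 14.41 in list 3, and that of Zfp369 (chromosome 13, 65428076 to 65428202) had 8.72 and 9.61 in the same lists. The site of Zfp966 (chromosome 2, 175714782 to 175714908) had 12.41 in list 2 and 6.41 in list 3. In Zfp966 the site lies in a group of neighbouring zinc finger genes with similar names, and Zfp969 of the same group had its own site of 127 bases with a fold of 9.72 in list 2.

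The remaining 15 genes had the site in 1 list. Zfp960 (chromosome 17, 17305783 to 17305909), a neighbour of Zfp97, had a fold of 15.15 in list 1. Zfp568, which encodes a KRAB repressor of a placental Igf2 transcript, had a fold of 14.01 in list 3, and Zfp266 had 12.3 in the same list. Over the 23 sites the folds ran from 5.51 to 18.41 with a median of 8.89. Outside the set, 95 sites in 81 genes had this length, and 1 of these genes, Gm11007, is described in the files as a zinc finger gene. Names starting with Gm were carried by 6 of the 81. Descriptions can be missing, as for 16 of the 169 genes of the set, so the count of 1 may be too low. Whether the sites coincide with the exon that encodes the KRAB box was not tested, again for want of an annotation of the build.

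The zinc finger genes lay in clusters along the genome, as the family is known to do. Chromosomes 7, 2, 17, 5 and 13 held 97 of the 169 genes (57.4%), beside 30.3% of all genes with a site, and beside 54.9% of the 461 protein-coding genes of these names in the RefSeq table. Chromosome 7 held 31, chromosome 2 held 20, chromosome 17 held 18 and chromosomes 5 and 13 held 14 each. Allowing gaps of up to 500000 bases between their sites, 89 genes fell into 27 groups of at least 2 and 80 stood alone, and 8 of the 16 genes in every list came from each kind. The largest group, on chromosome 7 (29483653 to 29862653), held Zfp30, Zfp790, Zfp383, Zfp74, Zfp568, Zfp260, Zfp382 and Zfp146 with 16 sites, and none of these genes was in every list.

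**Figure D5:**
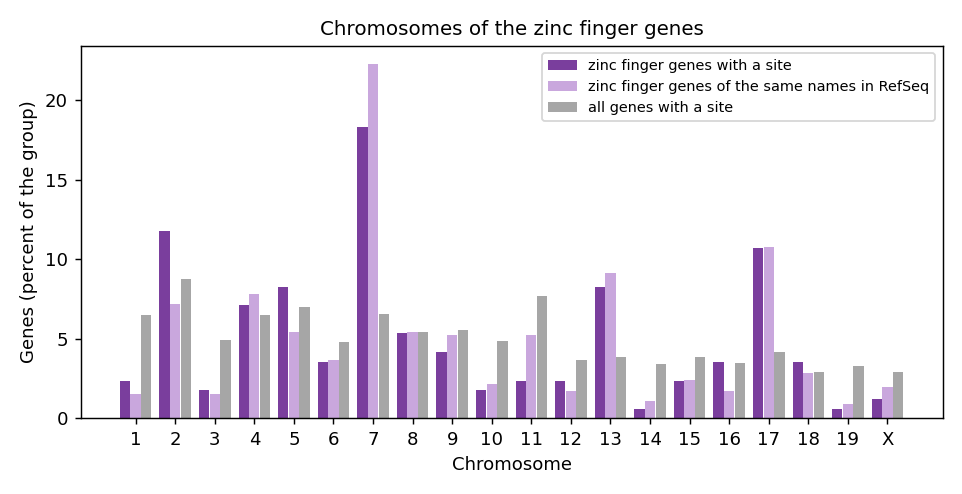
Percent of each group of genes (vertical axis) on each chromosome (horizontal axis), for the 169 zinc finger genes with a site (purple), the 461 protein-coding genes of the same names in the RefSeq table (light purple) and all 6277 genes with a site (grey). Chromosome 7 holds 18.3% of the zinc finger genes with a site, 22.3% of those in RefSeq and 6.55% of all genes with a site.

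Genes that work with these proteins were then looked up from lists chosen with earlier results of these data known. Their shares are for this reason a description only. Of 22 genes of the KRAB co-repressor machinery, 15 had a site (68.2%, beside 28.4% of all protein-coding genes), and for 7 of them every list held one (46.7% of the 15, beside 19.9% over the whole series). They were Setdb1, the histone methyltransferase recruited through TRIM28, with best folds of 6.66, 7.3 and 8.73; Atrx, a chromatin remodeller, with 5.09, 8.9 and 10.2; Dnmt1 and Dnmt3a, the DNA methyltransferases, and Hdac2, Morc3 and Pphln1. Trim28 itself had no listed site. Of 16 genes for partners of BTB proteins, 12 had a site (75%, beside the same 28.4%), 4 of them in every list (33.3% of the 12, beside 19.9%), namely Ncor1, a co-repressor with folds of 7.17, 10.82 and 8.78, and Sin3b, Bcorl1 and Hdac4.

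Other zinc finger genes were taken as a comparison. Of 87 C2H2 transcription factor genes with other names, 40 had a site (46%, beside 28.4%) and 3, Gli3, Prdm10 and Rreb1, had one in every list (7.5%, beside 9.47% in the genes named Zfp, Zbtb, Zscan or Zkscan and 19.9% over all genes with a site). Prdm10 had best folds of 22.96, 11.61 and 9.21. Of 34 genes for CCCH zinc finger proteins, which bind RNA rather than DNA and include the excluded Zfp36 relatives, 26 had a site (76.5%, beside 28.4%) and 6 had one in every list (23.1%, near the 19.9% over all genes with a site), among them Zfp36l2 (9.19, 5.93 and 9.97) and Rc3h1 (9.64, 6.73 and 16.49), which encode mRNA decay factors. These lists, too, were chosen with earlier results of these data known. They are short, and no test of their shares was made.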

How the data were processed

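Per the submitters' processing notes, the tools were HISAT2 2.0.4, STAR, cutadapt 1.9.3 and FastQC, listed with no role or order, on build mm39. The site names carry the prefix of the MACS caller, whose settings and control library are not stated. Sites were called per sample. The fold enrichment ratio, the score (minus 10 times the log10 of the p, per the file headers) and the FDR percent are the authors' deposited values. Peak lengths are the deposited end minus start; starts are printed counted from 1.

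Genes were taken by the files' names. Sites of different lists were called shared at an overlap of at least 1 base. Named genes were the member with a region in all lists, the 10 with the highest lowest best fold, the 3 with the highest fold of each list, the 5 with the most sites and Zbtb44; others were chosen after their values were seen, as were those of the length sections. Intervals are exact binomial (Clopper-Pearson, scipy 1.17.1). No test was run: the lists hold no values per library and genes are not replicates. The members and lists were chosen with earlier results of these data known. The region code was tested on simulated sites. The joined list, the authors' 11 gene symbols, and IgG and input libraries were not used. Alternatives were a caller score of at least 70, lists cut to the shortest, other overlaps, other names, a fold floor and leaving out each immunoprecipitation.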

Additional observations from a re-analysis of the deposited data

How the results depend on the processing

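No paired analysis was possible because only HuR sites, already called, were at hand, without any IgG value to pair with them. A caller score of at least 70 left 67, 58 and 82 zinc finger sites in lists 1, 2 and 3, 7 genes in all lists, 16 regions in at least 2 lists and 14 sites of 127 bases, and a median fold of 8.72 in list 1, as fewer sites enter. At this score 5.56% of the zinc finger genes were in all lists, beside 11.5% of all genes. With lists cut to 4722 sites, 71 zinc finger sites stayed in list 3, 32 of them of 1000 bases or more (beside 457 of all 4722), with 10 genes in all lists (6.85%, beside 15.3% of all genes) and 21 shared regions. Equal bounds as the condition left 18 regions in at least 2 lists and 0 in all 3. With each immunoprecipitation left out in turn there were 29 to 33 genes in both remaining lists (22.7 to 23.8% of the zinc finger genes, beside 34.7 to 42.1% of all genes), 9 to 15 shared regions and 13 to 18 sites of 127 bases, and 122 to 144 genes with a site. Zfp and Zbtb names alone, the files' gene identifiers, a 50% reciprocal overlap and a fold floor changed no value beyond 1.5 times or the spread between lists. The set of all C2H2 genes by protein motif was not run, as protein sequences were not used here. Unknown depth limits every statement that a site is not shared.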
